A study of Mus musculus with 2 samples.

Results

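The genes examined here encode the path by which the cytosol makes palmitate. There are 9 of them among the 24346 gene symbols measured, and they were chosen by name: Slc25a1, Acly, Acss2, Pcx, Acaca, Acacb, Fasn, Me1 and Pgd. RNA-seq was performed on whole omentum, the sheet of abdominal fat that carries the lymphoid clusters called milky spots, 5 days after injection of diphtheria toxin (DT). There were 2 libraries. One came from WT mice given DT, and the other from mice labelled DTR given the same DT. The latter are the Postn-DTR mice of the study, heterozygotes in which a mutated diphtheria toxin receptor was inserted into the Postn gene of C57BL/6 zygotes, so that cells using the Postn promoter are ablated by DT. The promoter is also used outside the omentum, and the study described an enlarged cecum in some Postn-DTR mice after DT. Age, sex and the number of mice behind each library are not given in the sources used here.

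Citrate formed in mitochondria is exported by the carrier SLC25A1 and cleaved by ATP citrate lyase (ACLY) into acetyl-CoA and oxaloacetate, whereas ACSS2 makes acetyl-CoA from acetate. Pyruvate carboxylase (Pcx) refills mitochondrial oxaloacetate. Acetyl-CoA carboxylase 1 (Acaca) makes the malonyl-CoA that fatty acid synthase (Fasn) joins into palmitate, and acetyl-CoA carboxylase 2 (Acacb) makes malonyl-CoA at the mitochondrial surface, where it restrains fatty acid import. Each elongation cycle of fatty acid synthase uses NADPH, which malic enzyme 1 (Me1) and the pentose phosphate pathway, through phosphogluconate dehydrogenase (Pgd), supply. In mice, adipose tissue and liver are the main sites of this synthesis, and adipocytes fill most of the omentum.

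Levels are given in FPKM, fragments counted per transcript length and sequencing depth, so that genes of different length can be set against each other within a library. The change of a gene is the difference of log2(FPKM + 1), Postn-DTR minus WT, and genes past 2-fold were called lower or higher. With 1 library per genotype there was no spread between replicates and no test, so no difference below has a replicate check. The targeted gene Postn stood at 58.3 FPKM in WT against 16.2 in Postn-DTR. From the lowest values, the WT library was estimated to hold 23424200 fragments, the Postn-DTR library 24072400, and the 9 genes about 951 to 225411 estimated fragments per library. Counting error alone then gave 95% intervals of at most ± 0.096 on the log2 ratio of any of the 9 genes, which does not cover differences between mice.

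All 9 genes had less FPKM in the Postn-DTR library, although Acacb turned to the other side under 1 rescaling of the libraries. Of the 9, 7 were at least 2-fold lower, against 3.12% of the 13127 genes whose FPKM averaged at least 1 over the libraries. None of the 9 was at least 2-fold higher, against 3.88% of all genes compared. The median change of the 9 genes was -2.58, beside 0.02 for all genes compared. The FPKM of the 9 genes summed to 3210.2 in WT, or 0.592% of all FPKM, and to 490.8 in Postn-DTR, or 0.0731%. The decrease was unequal along the path: Fasn, Me1 and Acss2 differed by 11.7-fold to 22.2-fold, Acaca, Acly, Slc25a1 and Pcx by 3.71-fold to 6.59-fold, and Pgd and Acacb by 1.70-fold and 1.29-fold. Whole tissue cannot tell fewer cells of a type apart from less of an RNA per cell.

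**Figure D1:**
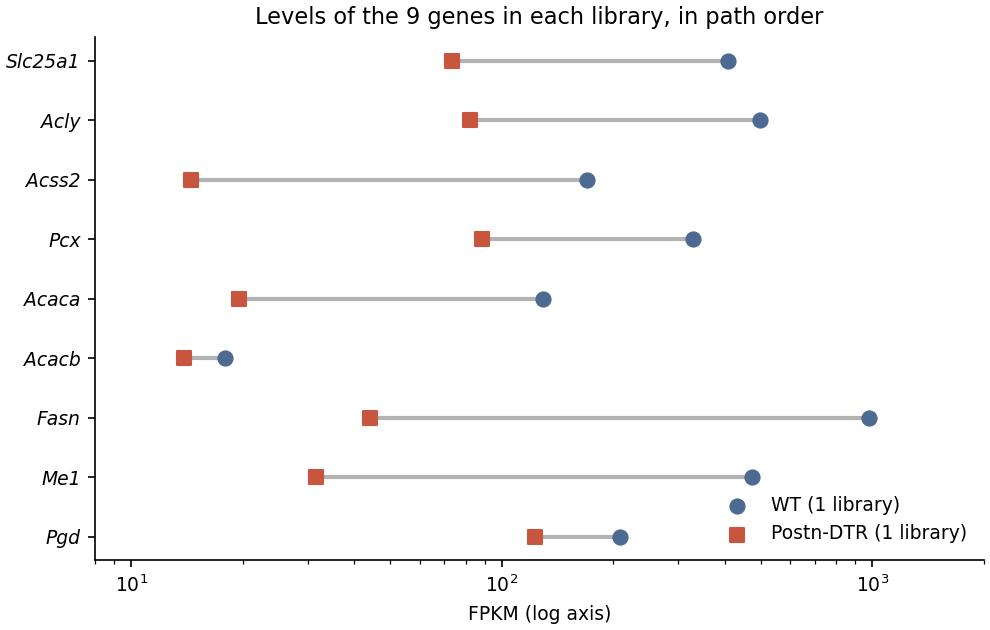
FPKM of each of the 9 genes (log axis) in the WT library (circles) and the Postn-DTR library (squares), in the order of the path. All 9 squares lie to the left of their circles, and the span runs from 1.29-fold for Acacb to 22.2-fold for Fasn.

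The supply of cytosolic acetyl-CoA was examined first. Slc25a1 (ENSMUSG00000003528, chromosome 16, 17925223 to 17928219 on the minus strand, GRCm38) stood at 408.8 FPKM in WT against 73.4 in Postn-DTR, for a change of -2.46. Acly (ENSMUSG00000020917, chromosome 11, 100476353 to 100528000, minus strand) had 497.0 and 82.3, a change of -2.58. These consecutive steps were lowered by a similar factor, 5.57-fold for the carrier and 6.04-fold for the lyase, and the ratio of Acly to Slc25a1 was 1.22 in WT and 1.12 in Postn-DTR. Acss2 (ENSMUSG00000027605, chromosome 2, 155517948 to 155585724, plus strand), the acetate route to the same product, was lowered further, from 169.7 to 14.5, which was 11.7-fold with a change of -3.46. The ratio of Acly to Acss2 was 2.93 in WT and 5.69 in Postn-DTR, so the level of the citrate route relative to the acetate route was higher where both were low. Acss2 shares 395 exonic bases with Gss, 335 with Acss2os and 197 with Ggt7, all on the opposite strand. Gss was at 7.04 and 10.2, Acss2os at 1.61 and 0.291 and Ggt7 at 0.730 and 0.654, all far below Acss2 in WT, while in Postn-DTR Gss at 10.2 was nearer to Acss2 at 14.5.

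Pcx (ENSMUSG00000024892, chromosome 19, 4510472 to 4621752, plus strand), which feeds oxaloacetate to citrate formation, stood at 327.7 FPKM in WT against 88.4 in Postn-DTR. The 3.71-fold difference, a change of -1.88, was the smallest among the 7 genes counted as lower. Pcx had rank 5 by level among the 9 genes in WT and rank 2 in Postn-DTR. Its ratio to Slc25a1 was 0.802 in WT and 1.20 in Postn-DTR.

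The acetyl-CoA carboxylase genes differed from each other. Acaca (ENSMUSG00000020532, chromosome 11, 84129672 to 84401651, plus strand) stood at 129.1 FPKM in WT against 19.6 in Postn-DTR (6.59-fold), for a change of -2.66. Acacb (ENSMUSG00000042010, chromosome 5, 114146535 to 114250761, plus strand) had 17.9 and 13.9, a change of -0.35, and 18.3% of all genes compared had a more negative change. Acacb was the lowest of the 9 genes in both libraries. The ratio of Acaca to Acacb was 7.20 in WT and 1.41 in Postn-DTR, so that the isozymes were closer in level in the Postn-DTR library. The direction for Acacb was not stable: its change was -0.65 at equal totals and became 0.21 when the median change of the adipocyte markers was set to 0.

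Fasn (ENSMUSG00000025153, chromosome 11, 120805846 to 120824547, minus strand), the enzyme that builds palmitate, had the widest difference of the 9 genes. It stood at 977.9 FPKM in WT against 44.0 in Postn-DTR, with a change of -4.44. In WT it ranked 84 among all 24346 symbols and took 30.5% of the summed FPKM of the 9 genes, and in Postn-DTR it ranked 2153 and took 8.97%. Only 31 of the genes compared had a more negative change, and these included all 8 pancreatic acinar markers compared. Further protease genes outside that marker list, such as Try4 (-9.29) and Cela3b (-8.29), were also among the 31. The ratio of Fasn to Acaca, the enzyme that supplies its malonyl-CoA, was 7.58 in WT and 2.25 in Postn-DTR. Against Acly the ratio was 1.97 and 0.535, so that the order of these levels was opposite in the libraries.

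Among the NADPH sources, Me1 was far lower in Postn-DTR, whereas Pgd stayed within 2-fold. Me1 (ENSMUSG00000032418, chromosome 9, 86581371 to 86695953, minus strand) stood at 473.0 FPKM in WT against 31.6 in Postn-DTR (15.0-fold), for a change of -3.86. Pgd (ENSMUSG00000028961, chromosome 4, 149149991 to 149166771, minus strand) had 209.1 and 123.2, a change of -0.76. The ratio of Me1 to Pgd was 2.26 in WT and 0.256 in Postn-DTR, and its ratio to Idh1, the cytosolic isocitrate dehydrogenase that also makes NADPH, was 4.06 and 0.253. Me1 was thus above both Pgd and Idh1 in WT and below both in Postn-DTR, where Pgd had the highest level of the 9 genes and 25.1% of their sum.

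By rank among all 24346 symbols, Acly went from 166 in WT to 1125 in Postn-DTR, Me1 from 173 to 3028, Slc25a1 from 192 to 1275 and Pcx from 233 to 1035. Acss2 went from 444 to 5708 and Acaca from 604 to 4539. Of the 2 genes within 2-fold, Pgd went from 365 to 725 and Acacb from 4710 to 5858.

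**Figure D2:**
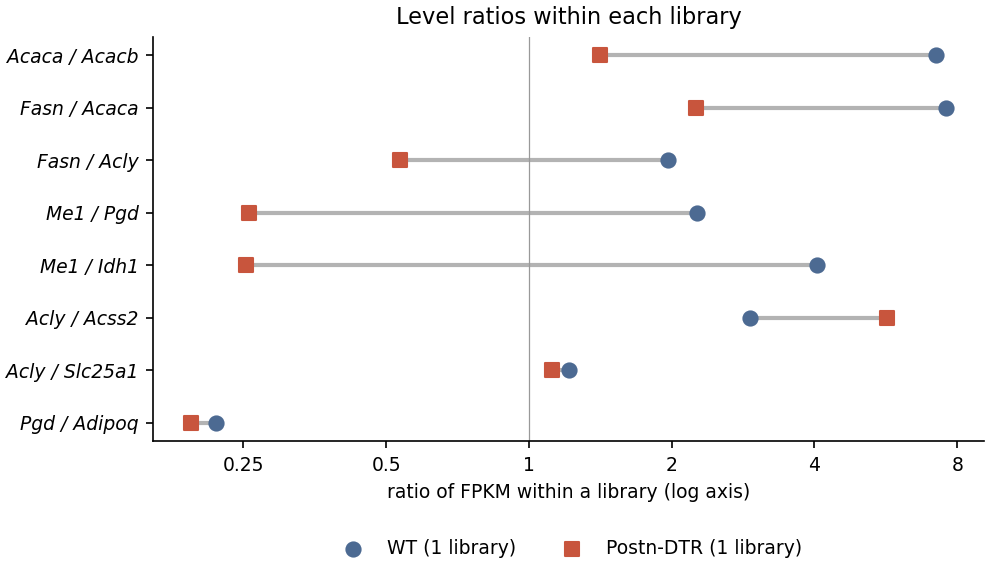
Ratio of the FPKM of one gene to that of another within each library (log axis), with WT as circles and Postn-DTR as squares. The ratios of Acly to Slc25a1 and of Pgd to Adipoq are close in the libraries, whereas Fasn to Acly, Me1 to Pgd and Me1 to Idh1 lie on opposite sides of 1. Adipoq is 1 of 13 adipocyte markers, and other markers would give other ratios.

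Promoter windows of RefSeq (GRCm38.p6), 250 bases before to 50 bases after an annotated start, were found for all 9 genes and are shown for 4 genes that were at least 2-fold lower and, as a contrast, for Acacb. Capitals mark the CCAAT box (CCAAT), the GC box (GGGCGG) and the E-box (CACGTG), each on either strand. Sequences are written on the strand of the gene.
Fasn, chr11:120824498-120824797, minus strand: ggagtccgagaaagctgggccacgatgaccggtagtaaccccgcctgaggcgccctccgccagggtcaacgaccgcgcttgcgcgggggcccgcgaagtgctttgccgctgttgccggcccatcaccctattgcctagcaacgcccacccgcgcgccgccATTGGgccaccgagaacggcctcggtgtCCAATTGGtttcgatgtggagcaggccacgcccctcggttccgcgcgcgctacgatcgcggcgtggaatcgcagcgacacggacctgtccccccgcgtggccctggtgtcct
Acly, chr11:100527951-100528250, minus strand: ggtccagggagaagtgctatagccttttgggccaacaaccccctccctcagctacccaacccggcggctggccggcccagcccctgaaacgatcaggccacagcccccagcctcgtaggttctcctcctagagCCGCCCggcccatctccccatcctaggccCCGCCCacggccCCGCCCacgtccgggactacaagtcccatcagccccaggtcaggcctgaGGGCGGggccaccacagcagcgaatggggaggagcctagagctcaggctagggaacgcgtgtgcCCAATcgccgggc
Acss2, chr2:155517793-155518092, plus strand: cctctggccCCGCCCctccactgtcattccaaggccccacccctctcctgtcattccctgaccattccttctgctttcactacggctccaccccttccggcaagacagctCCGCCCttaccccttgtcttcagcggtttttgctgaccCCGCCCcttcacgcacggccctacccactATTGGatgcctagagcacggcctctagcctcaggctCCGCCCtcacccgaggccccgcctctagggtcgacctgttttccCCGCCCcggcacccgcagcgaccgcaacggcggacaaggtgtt
Slc25a1, chr16:17928170-17928469, minus strand: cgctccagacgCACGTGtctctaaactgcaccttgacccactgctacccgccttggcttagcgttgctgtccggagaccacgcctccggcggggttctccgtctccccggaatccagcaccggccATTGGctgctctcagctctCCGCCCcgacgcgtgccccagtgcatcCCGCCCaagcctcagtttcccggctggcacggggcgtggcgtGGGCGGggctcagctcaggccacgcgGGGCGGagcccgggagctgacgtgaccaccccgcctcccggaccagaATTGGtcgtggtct
Acacb, chr5:114165268-114165567, plus strand: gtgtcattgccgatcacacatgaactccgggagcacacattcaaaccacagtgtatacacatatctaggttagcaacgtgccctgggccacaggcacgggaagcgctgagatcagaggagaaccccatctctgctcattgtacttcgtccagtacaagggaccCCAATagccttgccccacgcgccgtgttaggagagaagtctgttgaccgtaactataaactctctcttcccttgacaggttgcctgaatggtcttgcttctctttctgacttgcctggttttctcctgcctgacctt

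The windows did not share a single arrangement of these letters. Fasn had no GC box and had CCAAT boxes starting at -90, -62 and -59, the last pair overlapping on opposite strands. Acss2 held 5 GC boxes, Acly 4 and Slc25a1 4, while Acacb held a CCAAT box at -87 and no GC box. Counting any listed start, 8 of the 9 genes had a CCAAT box, 6 a GC box and 2 (Slc25a1 and Pcx) an E-box. Some genes had 2 listed starts. Counted by window, 9 of the 12 windows of the 9 genes held a CCAAT box, 6 a GC box and 2 an E-box. Among all 32841 RefSeq windows of this length 37.4% held a CCAAT box, 35.7% a GC box and 7.15% an E-box. The sterol regulatory element TCACNCCAC was in 0 of the 12 windows of the 9 genes and in 1.24% of all windows. A match is only a run of letters, and the listed starts of Acaca and Acacb lie inside their gene models, and other starts of these genes were not searched. GC content of the windows ran from 39.7% for Acaca to 74.7% for the upstream start of Me1.

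The genes next to the 9 loci were compared as well. Acaca, Acly and Fasn all lie on chromosome 11 and are separated by many other genes. Of the 18 nearest genes compared on either side of the 9 loci, 1 was at least 2-fold lower and 1 at least 2-fold higher, with a median change of -0.017. The lower one was 2010003K11Rik beside Pcx, at 6.71 in WT against 1.38 in Postn-DTR, and the higher one was Prss35 beside Me1, at 0.407 and 2.23. Next to Fasn, Dus1l was at 15.7 and 22.6 and Ccdc57 at 1.84 and 2.90. Tada2a, 72 bases from Acaca, was at 6.83 and 8.14.

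**Figure D3:**
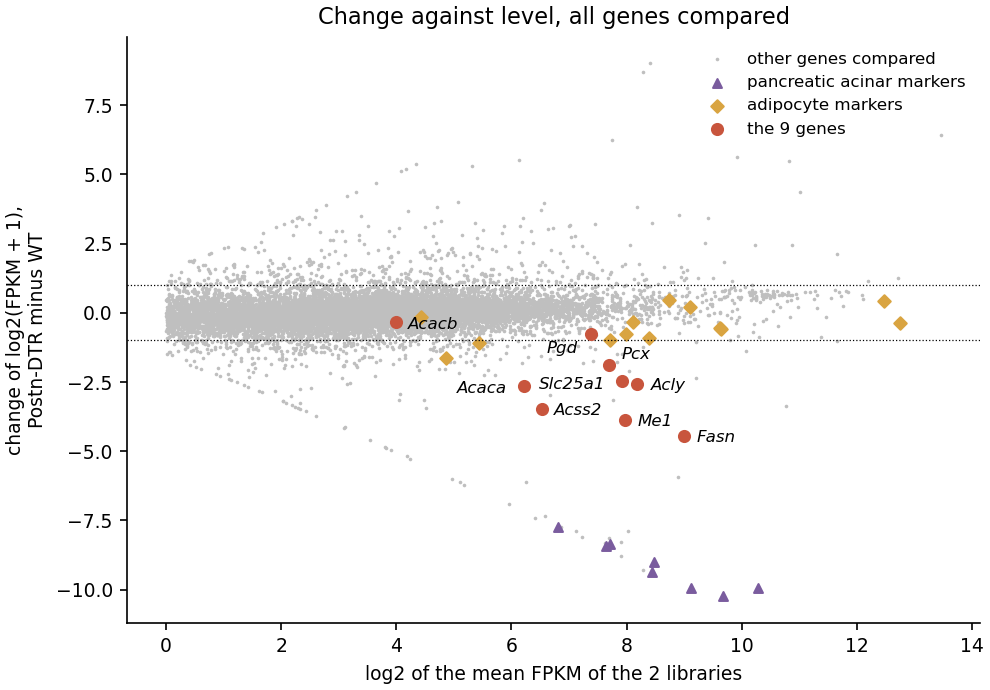
Vertical axis, difference of log2(FPKM + 1) between Postn-DTR and WT (negative, lower in Postn-DTR). Horizontal axis, log2 mean FPKM. Points are the 13127 genes compared, with dotted lines at 2-fold. The 7 lower genes of the path lie below the adipocyte markers and above the pancreatic acinar markers, and Pgd and Acacb lie within the lines.

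Other genes around the path were compared by 7 lists. Of the 60 list genes compared, 9 were at least 2-fold lower and 1 higher, with a median change of -0.24. In the mitochondrial supply of pyruvate and citrate, 4 of 12 were lower and 1 higher. Both subunits of the mitochondrial pyruvate carrier were among the lower ones, Mpc1 at 249.5 and 100.6 and Mpc2 at 178.1 and 79.9, as was Pdhb of pyruvate dehydrogenase at 143.4 and 70.6. The dicarboxylate carrier Slc25a10 had the largest decrease of this list, from 64.6 to 16.7. The exception was Pdk4, the kinase that inhibits pyruvate dehydrogenase, at 14.3 in WT against 75.9 in Postn-DTR. Citrate synthase (Cs) was at 158.2 and 96.7, and Mdh1, the cytosolic malate dehydrogenase that forms the substrate of malic enzyme, had the smallest change of this list, -0.10.

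In the list of pentose phosphate and other NADPH genes, 1 of 12 was lower. This was Tkt, the transketolase of the non-oxidative branch, at 429.9 in WT against 98.5 in Postn-DTR, for a change of -2.12. The difference of Tkt was larger than that of Pgd, and the ratio of Tkt to Pgd was 2.06 in WT and 0.799 in Postn-DTR. Taldo1, the transaldolase of the same branch, was at 290.1 and 200.8. Idh1 was at 116.5 and 124.8, with the smallest change of the list at 0.10, and the mitochondrial malic enzymes Me2 (14.3 and 18.7) and Me3 (0.958 and 1.39) were within 2-fold. H6pd, an NADPH source of the endoplasmic reticulum, was at 97.7 and 153.6.

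Among the partners of acetyl-CoA and malonyl-CoA, 1 of 10 was lower. This was Thrsp, also called Spot 14, a lipogenic protein of adipose tissue and liver, at 988.8 and 194.6. Its relative Mid1ip1, which promotes the polymerisation of acetyl-CoA carboxylase, was at 34.1 and 41.6. The mitochondrial relatives of Acss2, Acss1 (9.11 and 7.51) and Acss3 (12.2 and 12.0), stayed within 2-fold, and Acss3 had the smallest change of the list. AMP-activated kinase phosphorylates and inhibits acetyl-CoA carboxylase, and none of its 5 subunits compared was lower or higher. Prkag1 was at 47.1 and 63.7, Prkab1 at 22.8 and 22.7 and Prkaa1 at 11.3 and 9.82. Prkaa2, at 0.944 and 0.539, was too low to be compared. None of the 5 genes of the separate mitochondrial fatty acid synthesis was lower or higher either. Its changes ran from -0.42 for the reductase Mecr (24.6 and 18.1) to 0.02 for the malonyl transferase Mcat (10.4 and 10.5).

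Downstream of palmitate, 2 of 7 desaturases and elongases were lower. Elovl6, which extends palmitate, was at 42.8 and 2.996, and Scd1, the main stearoyl-CoA desaturase of adipose tissue, was at 3168 and 308.2. Elovl5, which extends polyunsaturated chains, was at 67.1 and 66.7, and had the smallest change of this list. Among the transcriptional regulators of lipogenesis, 1 of 9 was lower. This was Insig1, itself a target of SREBP factors, at 85.2 and 26.0. Srebf1 was at 72.3 and 45.0, a change of -0.67, and Mlxipl, which encodes ChREBP, had the smallest change of the list, at 42.9 and 44.4.

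**Figure D4:**
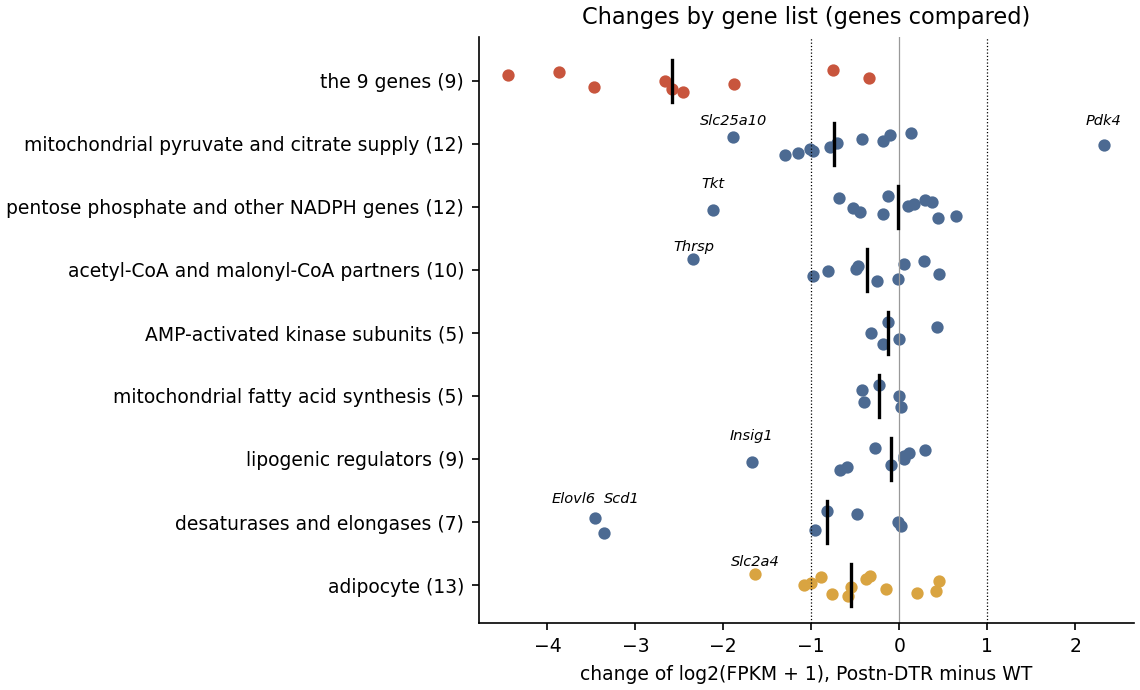
Changes of log2(FPKM + 1), Postn-DTR minus WT, of the genes compared in each list. Points are genes, black bars are list medians, numbers in parentheses are genes compared, and dotted lines mark 2-fold. The median is -2.58 for the 9 genes and lies between -0.82 and -0.02 for the other lists drawn.

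Cell type markers also moved between the libraries. The 13 adipocyte markers all stood at 13.7 FPKM or more in both libraries, and 2 were at least 2-fold lower, Slc2a4 (44.8 and 13.7) and Pparg (59.1 and 27.3). Their changes ran from -1.64 to 0.45 with a median of -0.55, and 10 of the 13 were below 0. Their summed FPKM was 16887 in WT and 15728 in Postn-DTR, with large parts from Cfd (7764 and 5976) and Fabp4 (4879 and 6519). None of the 13 was lowered as much as Pcx, the least affected of the 7 lower genes. The ratio of Fasn to Adipoq, the adiponectin gene, was 1.02 in WT and 0.0692 in Postn-DTR, whereas that of Pgd to Adipoq was 0.219 and 0.194. The pancreatic acinar markers made up 1.42% of all FPKM in WT and 0.000446% in Postn-DTR, with 8 of 8 compared lower. The macrophage markers summed to 2836 and 4576, with 3 of 6 at least 2-fold higher. T cell markers summed to 76.4 and 34.1, with 3 of 5 lower, B cell markers to 450.8 and 328.9, with 1 of 5 lower, and mesothelial markers to 363.5 and 342.1, with 1 of 4 lower. Of the thermogenic adipocyte markers 2 were compared and Cox8b was lower, and Ucp1 was at 0.0595 and 0.288. Among hepatocyte markers, liver being the other lipogenic organ, Alb was at 2.17 and 1.22, Apoa1 at 0.0546 and 0.422 and Ttr at 0.0842 and 0, against 681.6 and 1205 for Cyp2e1. That list summed to 684.3 and 1213, with 1 of 3 compared higher (Tat). Of 6 P1 stromal markers compared, 1 was lower (Postn) and 1 higher (Ptx3). The part of these cell types in the lower levels of the path was not tested.

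The median change of all genes was 0.02 without rescaling, -0.27 at equal totals and 0.57 with the adipocyte markers set to 0. With both libraries brought to the same FPKM total after the acinar markers were left out, 8 of the 9 genes were at least 2-fold lower, since Pgd reached -1.09, against 5.64% of all genes compared. At a 1.5-fold threshold it was also 8, against 8.84%. With the median change of the adipocyte markers set to 0, Pgd was at -0.21. Under this setting the 7 genes Slc25a1, Acly, Acss2, Pcx, Acaca, Fasn and Me1 were still at least 2-fold lower, against 1.18% of all genes compared. Their changes ran from -3.89 for Fasn to -1.33 for Pcx.

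**Figure D5:**
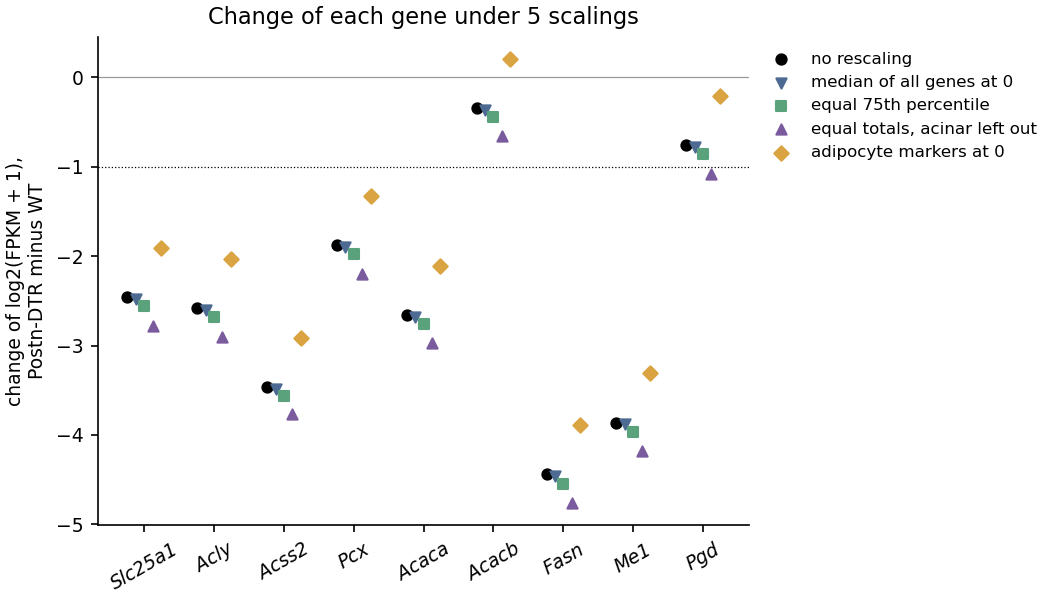
Difference of log2(FPKM + 1) between Postn-DTR and WT for each of the 9 genes without rescaling and under 4 rescalings of the libraries, with a dotted line at 2-fold lower. Fasn stays between -4.76 and -3.89, and Acacb is the only gene of the 9 with a point above 0, at 0.21 when the adipocyte markers are set to 0.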

How the data were processed

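Per the labels, total RNA was purified by miRNeasy and a TruSeq stranded mRNA kit was used for sequencing. The authors deposited FPKM for 24346 gene symbols per library. The submitters' processing notes name mm10, TopHat2 2.1.1, Bowtie2 2.2.8, SAMtools 0.1.18 and Cuffdiff 2.2.1, whose options, annotation and use of strand are not given in the sources used here. Positions came from GENCODE M21 on GRCm38, the assembly called mm10, in which 23310 symbols matched.

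Genes averaging 1 FPKM or more were compared as log2(FPKM + 1), which understates changes of low genes. Calls of 2-fold used this scale, whereas folds printed for a gene are FPKM ratios. Depth was estimated from low values of genes with 1 transcript: of 545 WT and 497 Postn-DTR values, 78.2% and 78.1% lay within 0.1 of a whole fragment, with denominators fitted on the same values. Fragments per gene used the longest coding transcript and cover counting error only.

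The members and lists were chosen with earlier results of these data known. 1 further gene of the path is not reported here. Named were the 9 genes and, from each list of the path, genes changed at least 2-fold and those with the largest and smallest changes, with close partners of a member. Other list genes and markers named were chosen with their values known. Analyses used Python 3.11.15, pandas 2.3.3 and matplotlib 3.10.9. The 10 alternatives concerned pseudocount, filter, scaling and threshold.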

Additional observations from a re-analysis of the deposited data

How the results depend on the processing

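No replicate could be left out, and no paired analysis was possible because each genotype had 1 library. The number of genes of the path at least 2-fold lower was 7 in 8 of the 10 alternatives and 8 in the other 2 (equal totals, and a 1.5-fold threshold), and none was higher under any. Their median change of -2.58 became -2.45 with a pseudocount of 5, -2.68 at an equal 75th percentile, -2.91 at equal totals without the acinar markers and -2.03 with the adipocyte markers set to 0. Over all genes compared, 410 genes were lower, against 643 with a pseudocount of 0.1, 168 with one of 5, 173 with a mean FPKM of at least 10, 741 at equal totals, 155 with the adipocyte markers set to 0, 1160 at 1.5-fold and 153 at 3-fold. There were 509 higher genes, against 287 with a pseudocount of 5, 303 with a mean FPKM of at least 10, 303 at equal totals, 1922 with the adipocyte markers set to 0, 1294 at 1.5-fold and 199 at 3-fold. Higher genes made up 55.4% of changed genes, 29.0% at equal totals and 92.5% with the adipocyte markers set to 0, settings that moved the median change of all genes to -0.27 and 0.57. Over the alternatives, the lower genes of the pathway lists ranged from 1 to 7 for mitochondrial pyruvate and citrate supply (4 in the report), 1 to 3 for acetyl-CoA and malonyl-CoA partners (1) and for lipogenic regulators (1), 2 to 4 for desaturases and elongases (2) and 1 to 2 for pentose phosphate and other NADPH genes (1). Higher genes ranged from 0 to 1 for the partners and for the NADPH genes. Stricter filters and thresholds lower a count by construction.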

Other observations

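Of the 103 genes with a change at least as negative as that of Pcx, 34 reached 100 FPKM in WT. The 7 lower genes of the path met the first cut by construction, as Pcx set it, and all 7 also reached 100 FPKM. The 16 of the 34 outside the path, the pathway lists and the acinar marker list were chosen after their values were seen. They included the protease genes Try4 (626.3 in WT and 0 in Postn-DTR) and Cela3b (480.7 and 0.537). They also included Dgat2, which catalyses the last step of triglyceride synthesis, at 390.8 and 43.2, and Orm1, an orosomucoid, at 182.2 and 22.6.

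A few genes that share a cofactor or a product with the path were also chosen after their values were seen. Besides Pcx, Acaca and Acacb, biotin is carried by the mitochondrial carboxylases for propionyl-CoA and methylcrotonyl-CoA. Pcca was at 35.9 in WT against 21.3 in Postn-DTR, Pccb at 53.1 and 37.0, Mccc1 at 40.5 and 20.0 and Mccc2 at 29.9 and 26.3. Cpt1a, the mitochondrial import enzyme that malonyl-CoA inhibits, was at 36.0 and 43.2. On the log2(FPKM + 1) scale none of these 5 differences reached 2-fold, with Mccc1 nearest at -0.99.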
